A study of Mus musculus with 10 samples.

Results

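The 32 genes described here build ribosomes: they transcribe ribosomal RNA, modify it, cut it and assemble it with protein in the nucleolus. They were chosen by symbol, as known nucleolar, snoRNP, ribosomal RNA transcription and assembly factors, from 22923 gene symbols measured, and all 32 were found. Expression was measured by RNA sequencing in 5 blood cell populations of C57bl/6 mice aged 4 weeks. Cycling and quiescent CD4+CD8+ thymocytes came from thymus, whereas large pre-B cells, small pre-B cells and mature granulocytes came from bone marrow. Cells were told apart with stains for surface markers and nucleic acid dyes. Each population was taken from controls, which carried Dyrk1a flox/flox alleles without the Mx1-Cre transgene, and from mice labelled Dyrk1a -/- with Mx1-Cre, called CKO here. Mx1-Cre is driven by an interferon-inducible promoter that is active in many cell types; whether an inducing agent was given is not stated in the labels. For each genotype the cells of 2 mice were pooled, so that each of the 10 groups was 1 library and the 5 populations of a genotype shared their mice. The p-values below therefore measure the spread between these libraries, not between animals.

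Ribosome production starts in the nucleolus, where RNA polymerase I transcribes a long ribosomal RNA precursor. Small nucleolar ribonucleoproteins (snoRNPs) modify that RNA, box C/D particles by methylation and box H/ACA particles by pseudouridylation, and separate sets of factors then trim and fold it into the small and the large subunit. Lymphocytes enlarge their nucleoli when they grow and divide, and the transcription factor MYC is a well known activator of many of these genes. Members fall into these groups: nucleolar structure (3 genes), RNA polymerase I transcription (3), box C/D (4), box H/ACA (4), small subunit (7) and large subunit (11).

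Dyrk1a itself was not lower in any CKO-labelled library: control and CKO values were 31.2 and 42.3 (cycling thymocytes), 37.4 and 44.7 (quiescent thymocytes), 33.2 and 34.4 (large pre-B), 34.1 and 36.9 (small pre-B) and 32.1 and 41.9 (granulocytes). All values are FPKM, fragments scaled by transcript length and by the library's mapped fragments, a unit inferred from the files. Since the deleted exons are not named, the gene's total checks nothing about the deletion, and CKO below means the label. Summed FPKM lay between 360394 and 431868 in the 8 lymphoid libraries and at 830006 and 1074258 in the granulocytes. All 10 thymocyte markers stood at 1 FPKM or more in the 4 thymocyte libraries, and all 10 pre-B markers in the 4 pre-B libraries. Of 12 granulocyte markers found, 9 in control and 11 in CKO granulocytes reached that level. There, Mpo and Elane, products of early granulocyte precursors, stood at 489 and 458 in control and at 209 and 207 in CKO, S100a8 was listed at 0 in control and at 246142 in CKO, and S100a9, a defining marker, was listed at 0 in both. The 3 markers short of 1 FPKM in control (S100a8, S100a9 and Ngp) and the 1 in CKO were all listed at exactly 0, which in such tables can be a failed estimate and is not read as absence. Depth per library is unknown, since the values are not counts.

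Every member had a value above 0 in every library. The 32 genes summed to 1807 FPKM in control and 1979 FPKM in CKO large pre-B cells. The sums were 1444 and 1310 in cycling thymocytes, 1180.1 and 1125 in quiescent thymocytes, 844 and 884 in small pre-B cells, and 352 and 295 in granulocytes. No 2 populations overlapped in this sum, and the order was the same for the median member, which ran from 27.1 and 29.2 FPKM in large pre-B cells through 23.1 and 21.1, 18.7 and 15.9, and 15.7 and 14.6 to 5.39 and 4.33 FPKM in granulocytes. In bulk libraries such as these, fewer cells of a type and less RNA per cell cannot be told apart. Of the 32 genes, 22 had their highest library in large pre-B cells, 6 in quiescent thymocytes, 3 in cycling thymocytes and 1 in granulocytes, while 30 had their lowest in granulocytes. The heat map of values by library shows this order along with its exceptions.

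**Figure D1:**
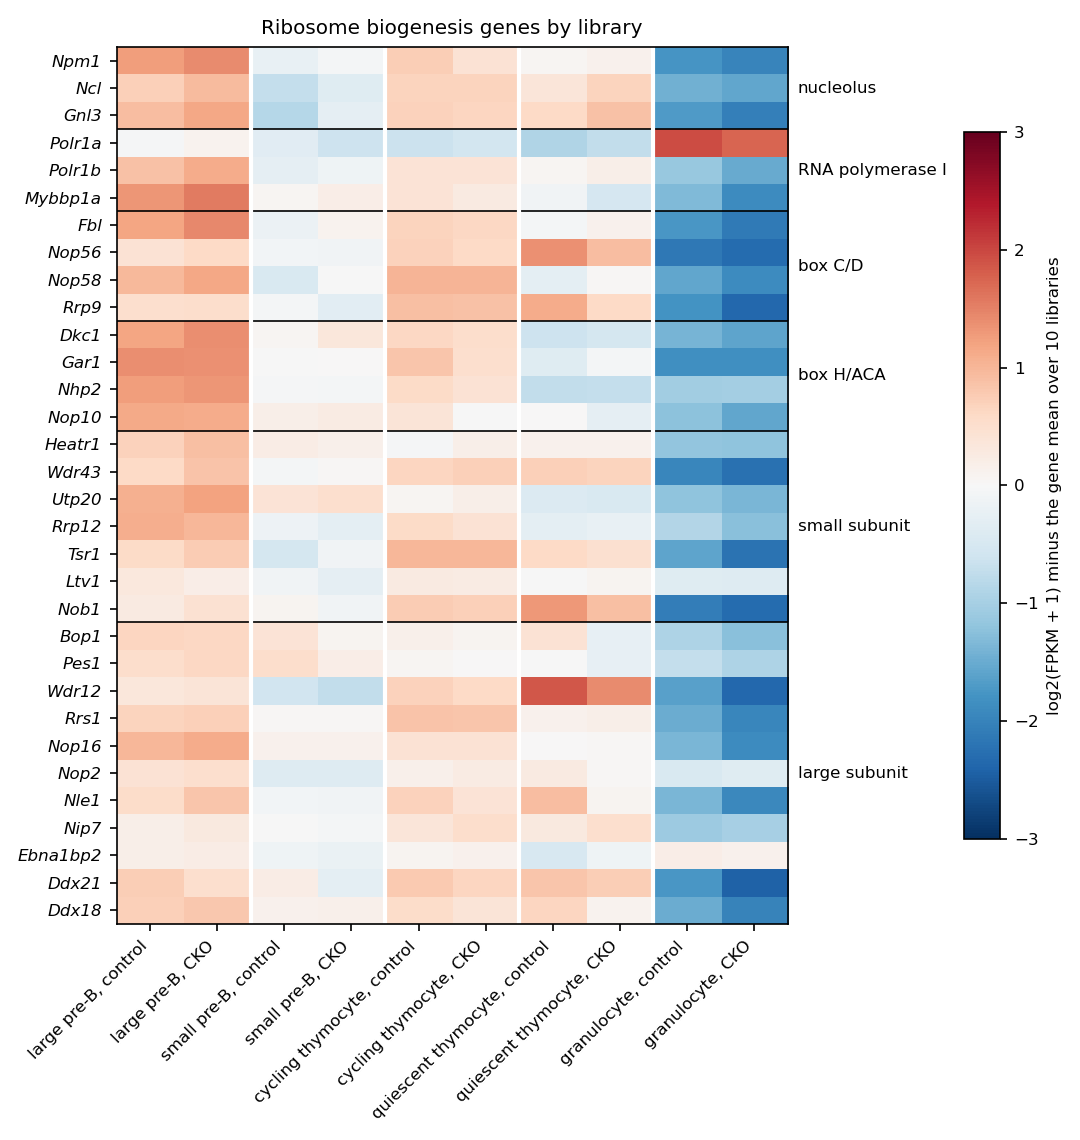
Each row is 1 of the 32 genes, grouped by role, and each column 1 of the 10 libraries. Colour gives log2(FPKM + 1) minus the gene's mean over the 10 libraries: large pre-B cells are mostly red, granulocytes mostly blue, and Polr1a in granulocytes and Wdr12 in quiescent thymocytes go the other way.

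The first comparison asked what happens to these genes when thymocytes leave the cell cycle. Quiescent thymocytes had less of 14 of the 32 genes than cycling thymocytes and more of 2, with 16 not called by limma at an adjusted p of 0.05. The test ran on log2(FPKM + 1) over the 8 lymphoid libraries, with p-values adjusted over all 11126 genes tested, of which 19.7% were called lower and 25.2% higher. The median member differed by −0.23 on the log2(FPKM + 1) scale, against 0.06 for all genes tested. Both quiescent libraries lay below both cycling libraries for 17 members and above them for 3, where 31.2% and 41.7% of genes with a value to compare did so. The 13 proliferation markers summed to 2590.0 FPKM in control and 2915 FPKM in CKO cycling thymocytes and to 297 and 1048 FPKM in the quiescent ones. Of the 8 monocyte markers, 3 reached 1 FPKM in each thymocyte library, and the list summed to 24.6 and 23.2 FPKM in cycling and 62.7 and 30.8 FPKM in quiescent cells; their part in the result was not tested.

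The RNAs of the box H/ACA genes fell together, all 4 of 4. Nhp2, a core protein of the particle, had 37.2 FPKM in the control and 33.7 FPKM in the CKO library of cycling thymocytes and 14.4 and 14.7 FPKM in quiescent ones. The groups did not overlap, and the difference was −1.23 ± 0.10 (log2, SE; limma adjusted p = 0.00617), a 2.44-fold lower mean. Dkc1, dyskerin, the pseudouridine synthase itself, went from 23.6 and 22.2 FPKM to 9.42 and 10.1 FPKM (−1.15 ± 0.11, limma adjusted p = 0.00617). Gar1, another core protein, went from 26.1 and 20.6 FPKM to 10.9 and 13.7 FPKM (−0.87 ± 0.17, limma adjusted p = 0.0128). Nop10, the smallest change of the 4, went from 65.2 and 49.3 FPKM to 50.1 and 41.1 FPKM (−0.32 ± 0.10, limma adjusted p = 0.0444), and its groups overlapped.

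The RNAs of the box C/D genes split. Nop58 and Nop56 are the paired scaffold proteins of the same particle. Nop58 had 69.1 FPKM in the control and 69.7 FPKM in the CKO library of cycling thymocytes and fell to 27.2 and 34.5 FPKM in quiescent ones (−1.15 ± 0.13, limma adjusted p = 0.00647). Nop56 stood at 107.8 and 101.3 FPKM in cycling and rose to 175 and 128 FPKM in quiescent thymocytes (0.52 ± 0.13, limma adjusted p = 0.0233). Nop56 (chr2:130274430-130279313, plus strand, GRCm38) overlaps the last bases of Idh3b on the other strand. Idh3b stood at 53.2 and 47.0 FPKM in cycling and 41.0 and 39.3 FPKM in quiescent thymocytes. Fbl, fibrillarin, the methyltransferase of the particle, fell from 88.8 and 85.1 FPKM to 53.2 and 60.2 FPKM (−0.61 ± 0.10, limma adjusted p = 0.00994). Rrp9, which belongs to the U3 particle, stood at 18.2 and 17.8 FPKM in cycling and at 21.1 and 14.6 FPKM in quiescent thymocytes and was not called.

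Of the nucleolar structure genes only Npm1 was called. Npm1, nucleophosmin, the most abundant member, fell from 449 FPKM in control and 365 FPKM in CKO cycling thymocytes to 281 and 295 FPKM in quiescent ones (−0.49 ± 0.12, limma adjusted p = 0.0246). Ncl, nucleolin, stood at 124 and 125 FPKM in cycling and 100.1 and 125 FPKM in quiescent thymocytes. Gnl3, nucleostemin, a nucleolar GTPase named for its level in dividing stem cells, stood at 26.5 and 25.6 FPKM in cycling and 24.997 and 30.4 FPKM in quiescent thymocytes. For Ncl and Gnl3 the cycling and quiescent libraries overlapped, with differences of −0.15 ± 0.12 and 0.08 ± 0.14. Among the polymerase I genes, Mybbp1a, a nucleolar regulator of that transcription, fell from 24.96 and 22.5 FPKM to 17.4 and 12.8 FPKM (−0.64 ± 0.12, limma adjusted p = 0.0112). The core subunits Polr1a and Polr1b differed by −0.24 ± 0.15 and −0.30 ± 0.12 and were not called.

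In the small-subunit group 3 of 7 fell, namely Rrp12 (−0.75 ± 0.13), Utp20 (−0.56 ± 0.12) and Tsr1 (−0.45 ± 0.12), all with limma adjusted p between 0.00930 and 0.0317. Nob1, the endonuclease that makes a final cut in the small-subunit RNA, stood at 25.8 and 24.9 FPKM in cycling and 38.0 and 28.4 FPKM in quiescent thymocytes. Both quiescent libraries were above both cycling ones, but the difference of 0.36 ± 0.15 was not called (limma adjusted p = 0.0960). Wdr43, part of the early processing complex, hardly varied, at 27.3 and 28.8 FPKM in cycling and 28.8 and 28.004 FPKM in quiescent thymocytes. Heatr1, also an early processing factor, and Ltv1, a late assembly factor of the small subunit, differed by 0.06 and −0.23 and were not called.

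In the large-subunit group Rrs1 (−0.70 ± 0.10), Ebna1bp2 (−0.41 ± 0.12) and Nop16 (−0.40 ± 0.11) fell and 1 gene rose. Rrs1, which brings the 5S particle into the large subunit, went from 31.6 and 30.7 FPKM to 18.6 and 19.1 FPKM (limma adjusted p = 0.00776). Wdr12 forms the PeBoW complex of large-subunit processing with Pes1 and Bop1. It had 16.2 FPKM in the control and 15.1 FPKM in the CKO library of cycling thymocytes and rose to 38.2 and 27.5 FPKM in quiescent ones (1.01 ± 0.14, limma adjusted p = 0.00730). Its partners were not called: Bop1 stood at 22.7 and 21.5 FPKM in cycling and 27.7 and 16.9 FPKM in quiescent thymocytes, so its control and CKO pairs went opposite ways. Pes1 stood at 19.9 and 19.2 FPKM in cycling and 18.9 and 15.9 FPKM in quiescent thymocytes, close to each other. Wdr12 (chr1:60069785-60098645, minus strand, GRCm38) overlaps Carf on the other strand. Carf was low, at 1.97 and 2.07 FPKM in cycling and 2.82 and 3.24 FPKM in quiescent thymocytes, and its part in the Wdr12 values was not tested. Such overlaps are not particular to the genes that rose. Of the 32 members, 14 overlap another gene on the other strand, among them Nhp2 with Rmnd5b, Dkc1 with Mpp1 and Gnl3 with Pbrm1. The part of these overlaps was not tested either. The remaining large-subunit genes, Ddx18, Ddx21, Nip7, Nle1 and Nop2, lay between −0.11 and 0.08 and were not called. Of these, Ddx21, an RNA helicase of the nucleolus, was the most abundant, at 83.7 and 75.6 FPKM in cycling and 86.9 and 81.1 FPKM in quiescent thymocytes.

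These thymocyte calls rest on few libraries. Without either control thymocyte library none of the 32 was called, without either CKO thymocyte library 8 were lower and 2 higher, and without any 1 of the pre-B libraries, which only share their spread, 8 were lower and 1 higher. None was called when genes of low value were kept in the test. With population and genotype as terms over all 10 libraries 11 were lower and 2 higher, and Nop10 was among those not called (limma adjusted p = 0.105).

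**Figure D2:**
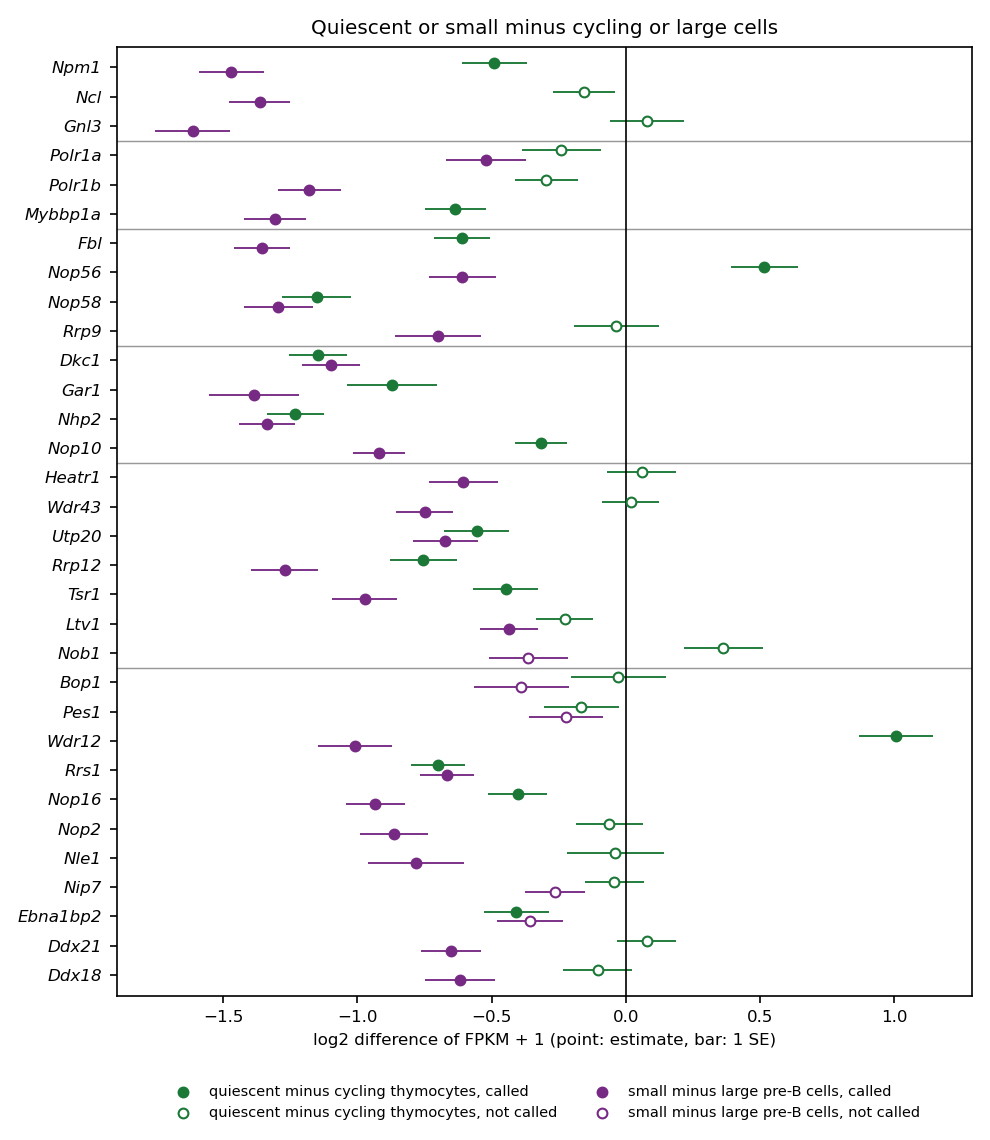
Points give each gene's log2 difference of FPKM + 1, quiescent minus cycling thymocytes in green and small minus large pre-B cells in purple, and bars give 1 SE. Filled points passed an adjusted p of 0.05: all 32 purple points lie left of 0, whereas green points run from −1.23 for Nhp2 to 1.01 for Wdr12.

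The same question in pre-B cells gave a fall almost throughout. Small pre-B cells had less of 27 of the 32 genes than large pre-B cells and more of none, against 21.8% called lower and 25.6% called higher among all genes tested. The median member differed by −0.82 on the log2 scale, against 0.04 for all genes. Both small pre-B libraries lay below both large ones for all 32 members, as they did for 35% of genes with a value to compare.

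All 3 nucleolar structure genes fell, and Gnl3 and Npm1 had the largest differences of the 32. Gnl3 had 31.2 FPKM in the control and 37.4 FPKM in the CKO library of large pre-B cells and fell to 8.40 and 13.1 FPKM in small ones (−1.61 ± 0.14, limma adjusted p = 0.00261). Npm1 fell from 647 and 719 FPKM to 231 and 261 FPKM (−1.47 ± 0.12, limma adjusted p = 0.00255). Ncl fell from 128 and 150.2 FPKM to 47.0 and 60.5 FPKM (−1.36 ± 0.12, limma adjusted p = 0.00256). The means of the 3 genes were 3.20, 2.78 and 2.59 times lower in small pre-B cells, with no overlap between the stages.

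All 3 polymerase I genes fell as well. Mybbp1a went from 48.1 and 56.6 FPKM to 19.4 and 21.6 FPKM (−1.31 ± 0.12) and Polr1b from 9.83 and 11.8 FPKM to 3.94 and 4.46 FPKM (−1.18 ± 0.12). Polr1a, from 8.70 and 9.70 FPKM to 6.86 and 5.41 FPKM, fell least of the 3 (−0.52 ± 0.15, limma adjusted p = 0.0355). The 4 box C/D genes also fell: Fbl from 128 and 151 FPKM to 48.6 and 59.3 FPKM, Nop58 from 67.2 and 76.0 FPKM to 24.3 and 33.5 FPKM, Nop56 from 90.4 and 102 FPKM to 62.9 and 62.5 FPKM, and Rrp9 by 0.70 on the log2 scale. In these cells Nop56 and Nop58 thus moved the same way, with differences of −0.61 ± 0.13 and −1.29 ± 0.13.

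The RNAs of the box H/ACA genes fell in pre-B cells as they did in thymocytes. Gar1 had 39.0 FPKM in the control and 38.1 FPKM in the CKO library of large pre-B cells and 13.995 and 14.3 FPKM in small ones (−1.38 ± 0.17). Nhp2 went from 60.3 and 62.8 FPKM to 24.1 and 23.4 FPKM (−1.34 ± 0.10), and Dkc1 from 35.6 and 41.5 FPKM to 15.8 and 19.2 FPKM (−1.10 ± 0.11). Nop10 went from 110.1 and 108.7 FPKM to 56.2 and 58.6 FPKM (−0.92 ± 0.10). None of the 4 overlapped between the stages, and limma adjusted p lay between 0.00246 and 0.00460.

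Small-subunit genes fell in 6 of 7 cases, by 0.44 (Ltv1) to 1.27 (Rrp12) on the log2 scale, among them Wdr43, which went from 26.6 and 32.1 FPKM to 16.4 and 17.5 FPKM (−0.75 ± 0.11). Large-subunit genes fell in 7 of 11 cases, by 0.62 (Ddx18) to 1.01 (Wdr12). Ddx21 went from 80.5 and 69.0 FPKM to 56.6 and 39.2 FPKM (−0.65 ± 0.11). The 5 genes that were not called were Bop1, Nob1, Ebna1bp2, Nip7 and Pes1, with differences of −0.39 to −0.22. Nob1, which was higher in quiescent thymocytes in both pairs without a call, stood at 17.9 and 20.5 FPKM in large and 15.6 and 13.7 FPKM in small pre-B cells. Pes1 was the closest to no difference, at 28.0 and 29.9 FPKM in large and 27.8 and 21.9 FPKM in small pre-B cells.

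Proliferation markers and marker genes of other cells moved with the pre-B contrast. The 13 proliferation markers summed to 2649.9 and 2917 FPKM in control and CKO large and to 627 and 1338 FPKM in small pre-B cells. Of the 12 granulocyte markers found, 11 and 10 reached 1 FPKM in control and CKO large and 11 and 9 in small pre-B cells. They summed to 1104 and 534 FPKM in large and to 607 and 457 FPKM in small cells, with Mpo at 365 and 159 FPKM against 6.48 and 4.57 FPKM. The 8 erythroid markers found summed to 472 and 296 FPKM against 41.5 and 59.3 FPKM, with all 8 against 3 at 1 FPKM. The 8 monocyte markers summed to 293 and 112 FPKM against 17.3 and 66.9 FPKM, with 7 and 6 against 4 and 5 at 1 FPKM. The 10 markers of natural killer and plasmacytoid dendritic cells went opposite ways in the genotypes, from 112 to 36.4 FPKM in sum in the control pair and from 180.2 to 307 FPKM in the CKO pair, with 10 and 8 at 1 FPKM in control and all 10 in both CKO libraries. In the CKO pair Siglech went from 3.76 to 41.5 FPKM, Cd7 from 7.497 to 41.2 FPKM and Bst2 from 48.6 to 134 FPKM. No marker of these lists was at 0 in a pre-B library, and their part in the result was not tested. Without either control pre-B library no member was called, without either CKO pre-B library 12 were lower, and without any 1 thymocyte library 26 were. With genes of low value kept in the test, 7 members were lower.

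The change from dividing to resting cells differed between the lineages for 8 of the 32 genes by the test of that difference itself, always toward a lower value in pre-B cells and for none toward a higher one, whereas 3.62% and 3.22% of all genes tested were called in those directions. At an unadjusted p under 0.05 there were 20 members and 3136 of all genes. The median difference between lineages was −0.57 for the members and −0.01 for all genes. Resting here means the labels quiescent and small. All 13 proliferation markers fell less in pre-B cells than in thymocytes (median lineage difference 1.625), with 0 called, and their part was not tested. Wdr12 differed most (−2.02 ± 0.19, limma adjusted p = 0.0172): it rose in quiescent thymocytes and fell from 12.5 and 12.9 FPKM to 6.21 and 5.45 FPKM in small pre-B cells. Nop56 was the other gene that was called in opposite directions (−1.13 ± 0.18, limma adjusted p = 0.0340). The 3 nucleolar structure genes were all among the 8, Gnl3 at −1.69 ± 0.20, Ncl at −1.21 ± 0.16 and Npm1 at −0.98 ± 0.17. Polr1b (−0.88 ± 0.17), Wdr43 (−0.77 ± 0.15) and Fbl (−0.75 ± 0.15) completed the list, with limma adjusted p of the 8 between 0.0172 and 0.0481.

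None of the box H/ACA genes was among the 8, with lineage differences of −0.11 for Nhp2, 0.05 for Dkc1, −0.51 for Gar1 and −0.60 for Nop10, each with an SE of 0.14 to 0.24. All 8 calls were lost when any 1 of the 8 lymphoid libraries was left out and when genes of low value were kept, and 4 were left with a pseudocount of 0.1.

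**Figure D3:**
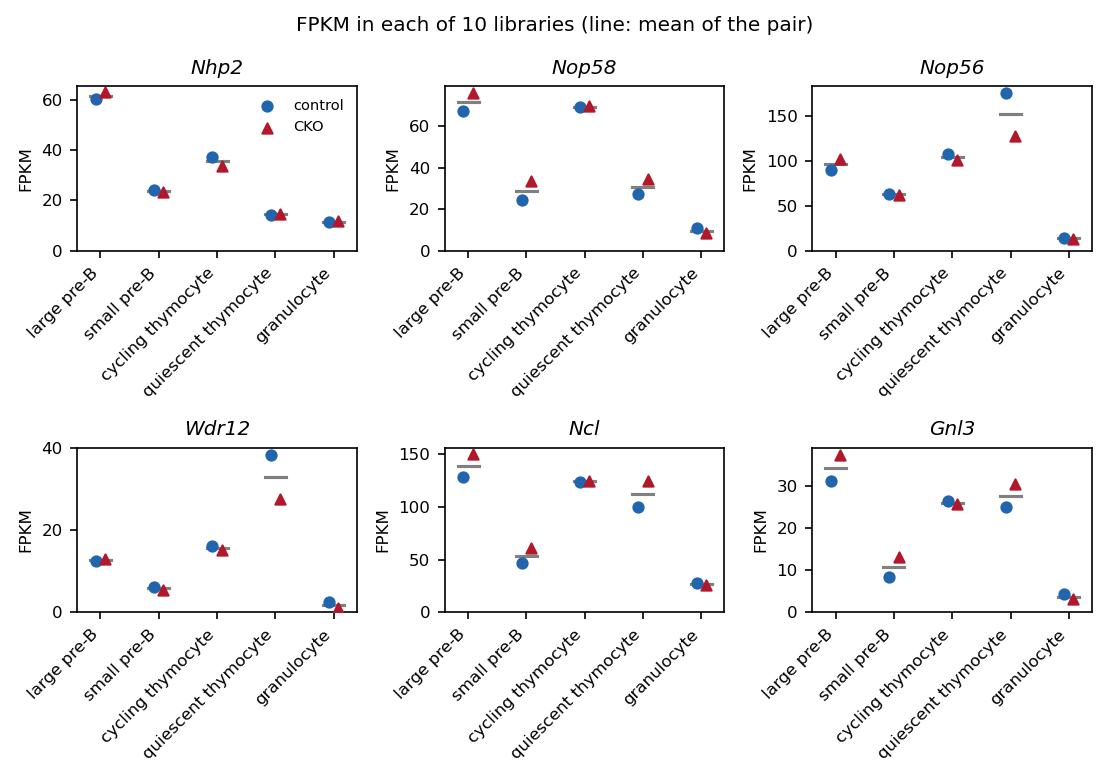
FPKM of 6 genes in each population, with control as blue dots, CKO as red triangles and a grey line at the mean of the pair. Nhp2 and Nop58 drop from dividing to resting cells in both lineages, Nop56 and Wdr12 peak in quiescent thymocytes, and Ncl and Gnl3 drop in small pre-B cells but stay within 100.1 to 125 and 24.997 to 30.4 FPKM in thymocytes.

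The lineages were also set against each other at the same stage. Cycling thymocytes had less of 15 members than large pre-B cells and more of none, where 26.6% and 24.6% of all 11715 genes tested over the 10 libraries were called; the median member differed by −0.33 and the median gene by −0.05. At an unadjusted p under 0.05 limma had 16 members. The lower genes included all 4 box H/ACA genes (−0.94 to −0.71), all 3 polymerase I genes (−1.11 to −0.58), Npm1 (−0.75) and Fbl (−0.67). Nop56, Nop58, Ncl and Gnl3 were not called. The count of lower genes ran from 7, without the CKO large pre-B library, to 15, and 1 gene was higher without that library. It was 8 without the CKO and 9 without the control cycling thymocyte library.

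Between the 2 resting populations the higher calls outnumbered the lower ones. These populations also differed in the 13 proliferation markers, of which 7 were lower in quiescent thymocytes and 0 higher (median −1.87). The markers summed to 297 and 1048 FPKM in control and CKO quiescent thymocytes and to 627 and 1338 FPKM in small pre-B cells. Their part in the result was not tested. Quiescent thymocytes had more of 11 members than small pre-B cells and less of 4, against 30.7% and 31% of all genes tested. The share of higher members was thus near that of all genes, and the share of lower members was below it. The higher genes were led by Wdr12 (2.29 ± 0.20, limma adjusted p = 0.000103), at 38.2 and 27.5 FPKM against 6.21 and 5.45 FPKM, which is 5.64 times the mean. Gnl3 (1.31), Nop56 (1.24), Nob1 (1.11), Ncl (1.05) and Rrp9 (1.04) followed, and Tsr1, Ddx21, Wdr43, Nop2 and Nip7 were higher by 0.43 to 0.86. The 4 lower genes were Utp20 (−0.90), Dkc1 (−0.77), Nhp2 (−0.67) and Pes1 (−0.49). Leaving out any 1 library gave 10 or 11 higher and 3 to 5 lower.

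The granulocyte libraries held the least of nearly every member. Of the 32 genes 30 were lower than in large pre-B cells, 1 was higher and 1 was not called, against 36.6% lower and 41.2% higher among all genes tested. The median member differed by −2.47 on the log2 scale, against 0.04 for all genes. Both granulocyte libraries lay below all 8 lymphoid libraries for 29 members, where 25.3% of all genes tested did.

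Fbl had 15.7 FPKM in the control and 11.9 FPKM in the CKO library of granulocytes against 128 and 151 FPKM in large pre-B cells (−3.25 ± 0.17, limma adjusted p = 3.54e-06). Npm1 stood at 78.7 and 67.2 FPKM (−3.21 ± 0.14, limma adjusted p = 1.93e-06) and Gar1 at 3.26 and 3.28 FPKM (−3.21 ± 0.15, limma adjusted p = 2.44e-06). Means were thus lower by 9.36 times for Npm1, 10.1 times for Fbl and 11.8 times for Gar1. Nop58 was at 10.7 and 8.39 FPKM, Nop56 at 14.5 and 12.8 FPKM, Ncl at 28.1 and 25.9 FPKM, Mybbp1a at 6.89 and 4.30 FPKM and Gnl3 at 4.23 and 3.10 FPKM. These genes all lay far below their level in large pre-B cells. The box H/ACA genes Nhp2, Nop10 and Dkc1 stood at 11.4 and 11.6 FPKM, 20.4 and 16.04 FPKM, and 5.11 and 4.37 FPKM. Nob1 stood at 2.75 and 2.17 FPKM, Wdr43 at 3.70 and 2.82 FPKM and Wdr12 at 2.49 and 1.10 FPKM. Utp20 was below 1 FPKM in both granulocyte libraries, and Rrp12, Tsr1 and Nle1 were below it in CKO.

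Of the large-subunit genes, Ddx21 stood at 13.8 and 8.10 FPKM and Bop1 at 10.1 and 7.93 FPKM, both lower than in any lymphoid library. Nop2, an RNA methyltransferase, was lower than in large pre-B cells by only 0.89 on the log2 scale (11.04 and 11.9 FPKM against 21.5 and 22.4 FPKM) and level with small pre-B cells at 11.6 in both. Ltv1, a small-subunit assembly factor, was lower by 0.62. Ebna1bp2 was not called: it had 20.1 FPKM in the control and 19.0 FPKM in the CKO library of granulocytes, beside 19.6 and 20.3 FPKM in large pre-B cells (−0.03 ± 0.13, limma adjusted p = 0.868).

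Polr1a went the other way. The large catalytic subunit of RNA polymerase I (chr6:71909053-71984935, plus strand, GRCm38) had 37.2 FPKM in the control and 32.3 FPKM in the CKO library of granulocytes, above all 8 lymphoid libraries, which lay between 4.25 and 9.70 FPKM; 31.7% of all genes tested were above all 8 in both granulocyte libraries. It was higher than in large pre-B cells by 1.81 ± 0.15 (limma adjusted p = 3.45e-05), 3.78 times in the mean. Polr1b, which forms the active centre with it, was at 1.70 and 1.08 FPKM in granulocytes. An antisense gene, Gm26628 (chr6:71961145-71963775), lies over an exon of Polr1a. No source used here says whether the counting used strand, so reads from that stretch may count for either gene. Its part in the Polr1a values was not tested. Leaving out any 1 library kept the counts at 30 lower and 1 higher. In these libraries labelled mature, the 13 proliferation markers, all at 1 FPKM or more, summed to 804 and 828 FPKM and the 8 monocyte markers, also all at that level, to 2814 and 2302 FPKM, and their part in the result was not tested.

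The rest of the pathway was followed in 144 further genes, whose counts stand against the shares of all genes given above for each contrast. Of these, 33 were lower and 11 higher in quiescent than in cycling thymocytes (median −0.12), a share of lower genes near the 19.7% of all genes, 71 lower and 8 higher in small than in large pre-B cells (median −0.37), and 120 lower and 7 higher in granulocytes than in large pre-B cells (median −1.26). In each contrast this median lay between those of the 32 members and of all genes tested. The 78 cytosolic ribosomal protein genes had medians of −0.20, −0.51 and −1.56.

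The snoRNP assembly factors, which load the core proteins onto the RNA, fell in 9 of 10 cases in thymocytes and 9 of 10 in pre-B cells, with the ATPases Ruvbl1 at −1.17 ± 0.12 and −0.99 ± 0.12 and Ruvbl2 at −0.55 ± 0.10 and −0.87 ± 0.10. The exosome and trimming genes, which degrade and shorten RNA from its end, fell in 9 of 15 cases in thymocytes and 12 of 15 in pre-B cells. Exosc9 (−1.56 ± 0.16 and −0.86 ± 0.16) and Exosc8 (−1.47 ± 0.18 and −1.18 ± 0.18) are examples of the fall. Xrn2, the gene of highest mean on that list, was not called in either lineage (0.29 ± 0.13 and 0.02 ± 0.13). The other small-subunit genes fell in 5 and rose in 2 of 44 cases in thymocytes but fell in 20 in pre-B cells. Utp11l was the member of that list with the largest thymocyte difference (−1.28 ± 0.12), and its pre-B difference of −0.34 ± 0.12 was not called. Of the genes of highest mean on that list, Emg1 and Imp3 were not called in either lineage. Ddx47 was higher in quiescent thymocytes (0.39 ± 0.11) and not called in pre-B cells (0.14 ± 0.11). The other large-subunit genes fell in 7 and rose in 3 of 43 cases in thymocytes and fell in 15 and rose in 3 in pre-B cells, with Rpf2 lower in both (−1.14 ± 0.11 and −0.84 ± 0.11). Of the genes of highest mean there, Rrp1 and Nsa2 were not called in either lineage. Gltscr2 was not called in thymocytes (0.29 ± 0.11) and was higher in small pre-B cells (0.51 ± 0.11). For the small- and large-subunit lists the thymocyte counts were below the 19.7% of all genes called lower and the 25.2% called higher. Of 18 further polymerase I genes, some of them subunits shared with other RNA polymerases, 2 fell and 2 rose in thymocytes. The 2 that fell were the shared subunits Polr2f (−0.80 ± 0.12) and Polr2k (−0.57 ± 0.11). In pre-B cells 5 of the 18 fell and 3 rose (median −0.08), against 21.8% and 25.6% of all genes. Ubtf, the factor that opens the ribosomal RNA genes, was not called in either lineage (0.04 ± 0.10 and 0.12 ± 0.10).

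**Figure D4:**
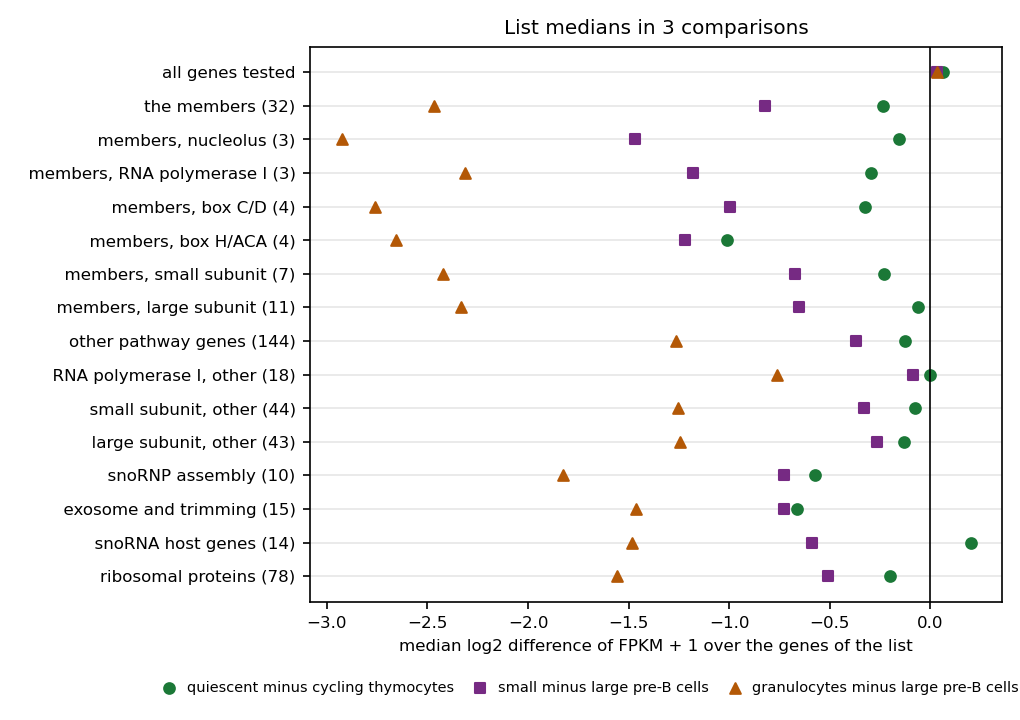
Median log2 difference of FPKM + 1 for each list of genes, with its number of genes in brackets, in 3 comparisons. The box H/ACA members (−1.01), snoRNP assembly (−0.57) and exosome lists (−0.66) lie furthest left for thymocytes, and of the lists drawn, the snoRNA host list is the only one right of all genes tested there (0.20 against 0.06).

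Many small nucleolar RNAs are made from the transcripts of host genes, and some members are hosts. In the GENCODE vM21 annotation of GRCm38, 7 of the 32 genes (21.9%) held at least 1 snoRNA gene on the same strand, against 279 of 21951 protein-coding genes (1.27%). They were Nop56 with 5, Nop58 with 4, Ncl, Gnl3 and Wdr43 with 3 each, Tsr1 with 2 and Dkc1 with 1. Of these 7, 4 (Nop56, Ncl, Gnl3 and Wdr43) were among the 8 genes whose state change differed between lineages, as were 4 of the other 25. A separate list of 14 snoRNA host genes outside the members had 6 called in that same test, all lower, with a median lineage difference of −0.69. Of all genes tested, 3.62% were called lower and 3.22% higher in it. The 8 member calls were all lost when any 1 lymphoid library was left out. A part of snoRNA hosting in these differences was not tested. In thymocytes 4 of the 14 rose and 1 fell, against 25.2% and 19.7% of all genes, so the share that rose was near that of all genes. In pre-B cells 1 rose and 10 fell, against 25.6% and 21.8%. Eif4a1 stood at −0.01 ± 0.10 in thymocytes and −1.06 ± 0.10 in pre-B cells, Hspa8 at 0.25 ± 0.12 and −0.90 ± 0.12, and Snhg7 at 1.04 ± 0.12 and 0.00 ± 0.12.

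Promoter sequence was looked up for the members. RefSeq windows of 300 bases on GRCm38.p6 (mm10), from 250 bases before to 50 after the start of the gene, were found for 27 of the 32. Rrs1, Rrp12, Bop1, Npm1 and Fbl had none. The hexamer CACGTG, the E-box bound by MYC with its partner MAX, was in 8 of the 27 (29.6%), against 8.91% of 17492 protein-coding genes with a window of the same length. In 7 of these 8 it lay after the start. CCGGAAG, a core that ETS factors recognise, searched on both strands, was also in 8 of 27 (29.6%), against 12.9%. CCAAT on either strand was in 40.7% against 42.3%, and the NRF1 core and the YY1 core AAGATGGC, on either strand, were in none of the 27, against 1.47% and 3.57%. To show the sequences behind these counts, 6 windows are printed here, each 5′ to 3′ on the strand of the gene, with CACGTG and CCGGAAG (or its complement CTTCCGG) in capitals. Nhp2 and Gar1 are shown as box H/ACA genes that fell in both lineages, Nop58 and Nop56 as partners that parted in thymocytes, and Mybbp1a and Tsr1 as genes that fell in both lineages and hold the E-box.
Nhp2: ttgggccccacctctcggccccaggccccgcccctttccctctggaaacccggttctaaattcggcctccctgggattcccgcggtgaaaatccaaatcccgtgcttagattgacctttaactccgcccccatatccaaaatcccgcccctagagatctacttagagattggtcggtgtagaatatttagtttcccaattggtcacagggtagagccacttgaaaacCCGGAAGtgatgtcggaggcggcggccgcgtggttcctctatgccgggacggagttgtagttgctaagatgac
Gar1: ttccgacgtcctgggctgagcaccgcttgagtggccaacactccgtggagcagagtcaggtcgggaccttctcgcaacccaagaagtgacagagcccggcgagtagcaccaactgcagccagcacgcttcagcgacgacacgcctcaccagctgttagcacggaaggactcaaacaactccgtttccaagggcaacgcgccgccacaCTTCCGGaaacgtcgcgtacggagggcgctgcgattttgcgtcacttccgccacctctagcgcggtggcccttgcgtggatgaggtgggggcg
Nop58: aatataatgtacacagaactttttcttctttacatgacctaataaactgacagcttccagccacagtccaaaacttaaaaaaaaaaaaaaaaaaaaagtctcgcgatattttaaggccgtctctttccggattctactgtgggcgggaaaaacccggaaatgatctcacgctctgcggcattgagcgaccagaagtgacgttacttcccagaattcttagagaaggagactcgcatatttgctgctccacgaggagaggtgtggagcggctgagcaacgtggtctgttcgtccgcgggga
Nop56: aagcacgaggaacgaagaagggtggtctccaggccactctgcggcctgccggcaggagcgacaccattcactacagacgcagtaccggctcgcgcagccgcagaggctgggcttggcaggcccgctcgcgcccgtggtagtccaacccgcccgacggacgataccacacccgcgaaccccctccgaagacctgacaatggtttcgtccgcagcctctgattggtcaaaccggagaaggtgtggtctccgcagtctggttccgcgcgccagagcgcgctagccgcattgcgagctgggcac
Mybbp1a: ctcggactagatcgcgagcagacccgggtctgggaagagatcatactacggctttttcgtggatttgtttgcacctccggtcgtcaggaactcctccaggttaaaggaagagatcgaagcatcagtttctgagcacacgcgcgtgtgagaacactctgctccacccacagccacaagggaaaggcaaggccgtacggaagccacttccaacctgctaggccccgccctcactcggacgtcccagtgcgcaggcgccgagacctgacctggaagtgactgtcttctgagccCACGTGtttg
Tsr1: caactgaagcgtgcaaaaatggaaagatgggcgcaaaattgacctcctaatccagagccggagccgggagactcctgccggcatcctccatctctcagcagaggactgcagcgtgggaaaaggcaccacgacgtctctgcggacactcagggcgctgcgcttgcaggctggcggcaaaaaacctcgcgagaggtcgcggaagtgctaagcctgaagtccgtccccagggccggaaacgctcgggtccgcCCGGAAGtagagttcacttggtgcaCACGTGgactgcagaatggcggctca
The window of Nhp2 lies at chr11:51619523-51619822 (plus strand), that of Gar1 at chr3:129831347-129831646 (minus strand), Nop58 at chr1:59684756-59685055 (plus strand), Nop56 at chr2:130274162-130274461 (plus strand), Mybbp1a at chr11:72441077-72441376 (plus strand) and Tsr1 at chr11:74897830-74898129 (plus strand). The Nhp2 window holds the ETS core once and no CACGTG, and so does the Gar1 window, there as CTTCCGG. Neither motif is in the window of Nop58 or of Nop56. Dkc1 and Nop10, the other box H/ACA genes, also fell in both lineages, and their windows hold neither motif. Of the 8 members with the ETS core, 4 fell in thymocytes and 6 in pre-B cells (medians −0.32 and −0.73). Of the 19 with a window and without that core, 6 fell and 2 rose in thymocytes and 17 fell in pre-B cells (medians −0.15 and −0.78). The 8 genes with CACGTG were Ltv1, Mybbp1a, Nle1, Nop2, Pes1, Tsr1, Utp20 and Wdr43. Of them 3 fell in thymocytes and 7 in pre-B cells, with medians of −0.20 and −0.77, and of the 19 members with a window and without it 7 fell and 2 rose in thymocytes and 16 fell in pre-B cells, with medians of −0.15 and −0.92. Myc RNA stood at 33.6 and 45.4 FPKM in control and CKO large pre-B cells and at 4.81 and 16.9 FPKM in small ones. Among thymocytes it was 9.32 and 11.4 FPKM in cycling and 4.19 and 7.26 FPKM in quiescent cells, and granulocytes held 6.22 and 3.65 FPKM. Myc was thus highest in large pre-B cells, as were the summed members. Small pre-B CKO cells had more Myc than either cycling thymocyte library and a smaller member sum. Mycn, of the same gene family, stood at 4.77 and 7.57 FPKM in control and CKO cycling and 2.52 and 6.82 FPKM in quiescent thymocytes. It stood at 1.08 and 1.66 FPKM in large and 1.38 and 2.20 FPKM in small pre-B cells. The part of Myc and Mycn in the members' values was not tested. A match is a description of these letters, and a missing match says nothing of binding.

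The last comparison set CKO-labelled against control libraries. No member at 5 FPKM or more in the higher library reached a 2-fold ratio of FPKM + 1 in any population. Members below that level were not counted. It was reached by 0 of 30 members in cycling and 0 of 29 in quiescent thymocytes. In large pre-B cells 0 of 32 members reached a 2-fold ratio, in small pre-B cells 0 of 28 and in granulocytes 0 of 18. Among all genes at 5 FPKM or more, 0.954%, 5.26%, 1.84%, 6.3% and 2.33% reached it in either direction, in the same order of populations. With 1 library per group these ratios have no replicate check. Median log2 ratios of the members, CKO to control, were −0.05, 0.00, 0.12, −0.01 and −0.22 in the same order. In large pre-B cells 26 of 32 ratios were above 0, and in granulocytes 16 of 18 were below it. No share of all genes is set beside these counts, so they are not read as a shift of the members. In quiescent thymocytes all 13 proliferation markers were 2-fold higher in CKO, with a median log2 ratio of 2.64, and in small pre-B cells 9 of 13 were, with a median of 1.09. Other marker lists also differed between the small pre-B libraries. The 10 natural killer and plasmacytoid dendritic markers summed to 36.4 FPKM in control and 307 FPKM in CKO, with Siglech at 2.25 and 41.5 FPKM and Cd7 at 2.81 and 41.2 FPKM. Of the pre-B markers, Igll1 and Vpreb1, parts of the surrogate light chain of early B cells, stood at 107 and 132 FPKM in control and 440.0 and 418 FPKM in CKO, while the list summed to 5164 and 4066 FPKM. The part of all these markers in the members' ratios was not tested.

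**Figure D5:**
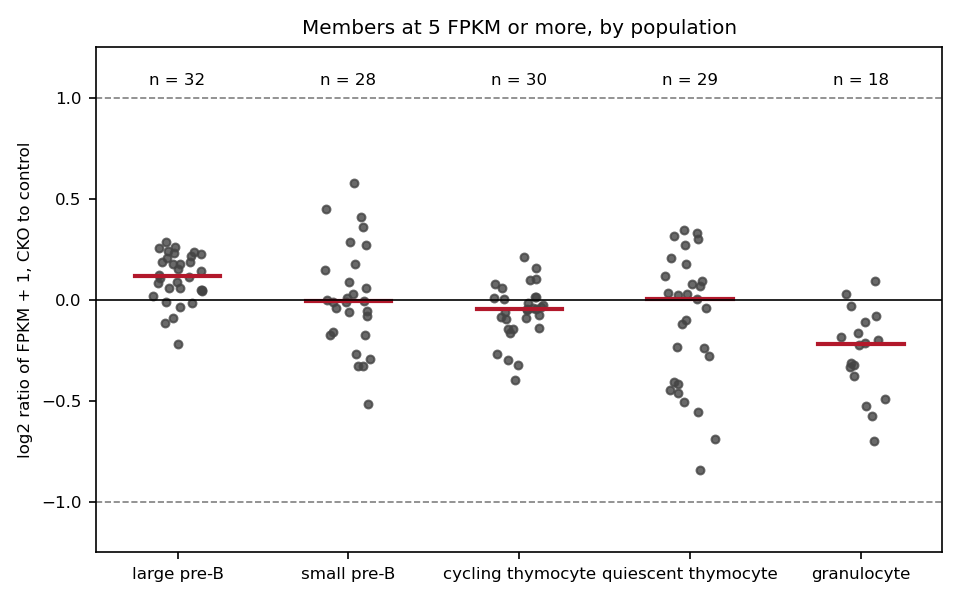
Each dot is 1 gene at 5 FPKM or more in the higher library, at its log2 ratio of FPKM + 1 of CKO to control, and red lines give medians. Dashed lines mark a 2-fold ratio, which no dot reaches: the widest are Nle1 in quiescent thymocytes (−0.84) and Ddx21 in granulocytes (−0.70).

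Over the 4 lymphoid populations together, limma called 0 of 32 members different between the genotypes at an adjusted p of 0.05, against 0.036% of all genes tested. At an unadjusted p under 0.05 there were 3 of 32 members and 1867 of 11126 genes. With the granulocytes added it again called 0 of 32, against 0.0512% of all genes, and 3 members were below the unadjusted threshold. Differences ran from −0.28 for Bop1 to 0.26 for Gnl3, with SEs of 0.07 to 0.19.

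Bop1 was lower in CKO in 4 of 4 lymphoid populations, at 22.7 in control and 21.5 FPKM in CKO cycling thymocytes, 27.7 and 16.9 FPKM in the quiescent ones, 32.02 and 31.7 FPKM in large pre-B cells and 27.1 and 21.4 FPKM in small ones (−0.28 ± 0.13, limma adjusted p = 0.322). Ddx21 was also lower in 4 of 4, with its widest gap in small pre-B cells at 56.6 and 39.2 FPKM (−0.24 ± 0.09, limma adjusted p = 0.274). Both gaps were uneven across the populations. Ncl, Nop58 and Polr1b were higher in 4 of 4, by 0.23 ± 0.08, 0.24 ± 0.09 and 0.13 ± 0.08, with limma adjusted p of 0.269, 0.279 and 0.446. Gnl3 was higher in 3 of 4, most in small pre-B cells at 8.40 and 13.1 FPKM, and Gar1 was closest to no difference (−0.01 ± 0.11).

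The change from dividing to resting cells was also compared between genotypes. In pre-B cells all 32 members were lower in the small library of both the control pair (median −0.75) and the CKO pair (median −0.87). In thymocytes 21 were lower in the control pair (median −0.30) and 27 in the CKO pair (median −0.27). The share of all genes lower within each pair was not counted, so these counts are not read as a result about the members. By the test of the difference itself, limma called 0 of 32, against 0.0449% of all genes, and 5 of 32 members and 1358 of 11126 genes were below an unadjusted p of 0.05. That fit had 1 residual degree of freedom. The widest estimates were −0.46 ± 0.14 for Bop1 and 0.34 ± 0.17 for Gar1, with limma adjusted p of 0.304 and 0.486.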

How the data were processed

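RNA was sequenced from 10 libraries, 1 for each of 5 populations in 2 genotypes, each genotype from 1 pool of 2 mice. The deposited values are 1 number per gene and library, read as FPKM from their form; the authors used TopHat2 2.0.8b, Cuffdiff 2.1.1 and mm10, per the submitters' processing notes. The annotation and the strand setting are not given in the sources used here. Depth is unknown, so no counting error is given.

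From 23179 rows, 201 exact repeats were dropped; 47 symbols still had several rows, of which the one with the highest mean stayed. Values were compared as log2(FPKM + 1) with limma 3.58.1 (trend, R 4.3.3), over genes at 1 FPKM or more in at least 2 fitted libraries, with Benjamini-Hochberg adjustment over all genes and a threshold of 0.05; all 32 members passed that filter. A log2 difference on this scale understates the change of low genes. State contrasts and their difference between lineages were fitted over the 8 lymphoid libraries with each resting library blocked with the dividing library of its lineage and pool (2 residual degrees of freedom); genotype contrasts added the population as a block; contrasts between lineages and with granulocytes used all 10 libraries with population and genotype terms. The control and the CKO pair were thus the 2 replicates of a state contrast. Within a population there was 1 library per genotype, so only log2 ratios are given, with a 2-fold rule for genes at 5 FPKM or more in the higher library. The scripts were tested on simulated data. Python 3.11.15, pandas 2.3.3 and numpy 2.4.6 were used for joining and counting. Alternatives were other pseudocounts (0.1 and 5), other filters, rescaled libraries, other sets of libraries in the fit and leaving out each library.

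Every member may be named; values in every library were due for the 2 members of highest mean in each role, for the 3 largest and the smallest difference in the state, granulocyte and lymphoid genotype contrasts, and for genes called between lineages. In the other lists the 3 genes of highest mean and the 1 of largest thymocyte difference were eligible to be named, and only some of them are given. Nolc1 and single markers such as Mpo were named after their values were seen. The members, the gene lists and the motifs were chosen with earlier results of these data known. Gene positions come from GENCODE vM21 and promoter windows from RefSeq, both on GRCm38.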

Additional observations from a re-analysis of the deposited data

Results flagged for a closer look

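For 8 members the change from dividing to resting cells differed between pre-B cells and thymocytes by a test of that difference itself (limma, adjusted p under 0.05; log2 difference in pre-B cells minus that in thymocytes). The values were −2.02 for Wdr12, −1.69 for Gnl3, −1.21 for Ncl, −1.13 for Nop56, −0.98 for Npm1, −0.88 for Polr1b, −0.77 for Wdr43 and −0.75 for Fbl. All 8 differences were below 0, and each had 2 pairs of libraries per lineage behind it. No cause was tested.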

How the results depend on the processing

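Rescaling the libraries changed no count of members called. With genes of low value kept in the test, 0 members were lower and 0 higher in quiescent thymocytes, 7 were lower in small pre-B cells and 0 differed between lineages. With a pseudocount of 0.1, 4 differed between lineages. Leaving out 1 library at a time gave 0 to 8 lower and 0 to 2 higher members in quiescent thymocytes, 0 to 26 lower in small pre-B cells, 0 different between lineages, 7 to 15 lower and 0 to 1 higher in cycling thymocytes against large pre-B cells, 3 to 5 lower and 10 to 11 higher in quiescent thymocytes against small pre-B cells, and 30 lower and 1 higher in granulocytes. Differences that changed sign were all uncalled: over the leave-outs Gnl3 ran from −0.0801 to 0.2374, Bop1 from −0.3351 to 0.2771 and Wdr43 from −0.0408 to 0.0758 in thymocytes, where leaving out a library drops its pair, and Ebna1bp2 ran from −0.1117 to 0.0602 in granulocytes. Leaving out a library left no residual degree of freedom for the genotype difference of the state change, so it was not run there. The state contrasts were paired by pool in the fit itself; replicate numbers only name libraries, since each group held 1. Without those pool blocks (population and genotype over all 10 libraries) 11 members were lower and 2 higher in quiescent thymocytes and 26 lower and 0 higher in small pre-B cells. Depth is unknown, so low values such as those of Utp20, Rrp12, Tsr1 and Nle1 in granulocytes carry no counting error here.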

Other observations

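The MYC network list, 11 genes that bind with or compete against MYC, was not described with the members. In quiescent thymocytes 3 of its genes were higher and 1 lower than in cycling thymocytes, and in small pre-B cells 3 were higher and 2 lower than in large ones (limma, adjusted p under 0.05). Of all genes tested, 25.2% were higher and 19.7% lower in the first contrast and 25.6% and 21.8% in the second, so these counts were near the background. Mxd4, a MAX partner that represses MYC targets, was higher in both resting populations, by 1.44 ± 0.11 in thymocytes and 1.77 ± 0.11 in pre-B cells. Mxd3 was lower in both, with differences of −3.45 ± 0.58 and −2.01 ± 0.58. Mxd1 was called in pre-B cells (1.09 ± 0.15) and not in thymocytes (0.33 ± 0.15), and the difference between the lineages was not called (limma adjusted p = 0.0918). Max was called in thymocytes (0.49 ± 0.14) and stood at 0.00 ± 0.14 in pre-B cells. Nolc1, a nucleolar protein outside the 32, was listed at 0 in 3 libraries and at 4.42 to 50.8 FPKM in the other 7.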
